A study of Mus musculus with 3 samples.

Results

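The 10 genes described here encode the parts of MHC class I antigen presentation: the heavy chains H2-K1 and H2-D1 and the nonclassical heavy chain H2-T23, their shared light chain B2m, the peptide transporter subunits Tap1 and Tap2, the immunoproteasome subunits Psmb8, Psmb9 and Psmb10, and the transactivator Nlrc5. They were chosen by gene symbol and make up 10 of 32293 features, each symbol matching 1 feature. They were measured in single-cell RNA-seq libraries of CD45- thymic stroma, the nonhematopoietic cells that house developing T cells. All mice were C57BL/6, 20 months old and untreated. The groups were Foxn1Lin female and Foxn1Lin male, both carrying the Foxn1 lineage trace, and wild type male, with 1 library each (3 in all). In the lineage trace, Cre recombinase under Foxn1 control switches on a floxed-stop tdTomato reporter at Rosa26, so that epithelial cells with a history of Foxn1 expression, and their descendants, are marked. Each library was made from thymi pooled over several animals, so that variation between mice cannot be seen. Genotype, sex and sorting cannot be told apart between the libraries, and the labels of wild type male are unlike each other, since its title gives CD45- stroma and its cell type field CD45-PECAM1+ stroma.

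MHC class I molecules carry peptides from the cytosol to the cell surface, where CD8 T cells read them. The proteasome cuts proteins into peptides, TAP pumps the peptides into the endoplasmic reticulum, and the heavy chain folds around a peptide together with beta-2-microglobulin. Under interferon, cells exchange the catalytic subunits Psmb6, Psmb7 and Psmb5 of the constitutive proteasome for Psmb9, Psmb10 and Psmb8, and the result is the immunoproteasome. Cortical thymic epithelial cells (TECs) make the thymoproteasome, in which Psmb11 takes the place of Psmb5 or Psmb8 beside Psmb9 and Psmb10, and which serves the positive selection of CD8 T cells. Nlrc5 drives transcription of class I genes through a promoter module bound by RFX, CREB/ATF and NF-Y factors.

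Of the 10 genes, 7 lie on chromosome 17 of GRCm38 (GENCODE vM21), 2 on chromosome 8 and 1 on chromosome 2. H2-K1 lies at chr17:33996017-34000347 on the minus strand, H2-D1 at chr17:35262730-35267499 on the plus strand and H2-T23 at chr17:36029773-36032855 on the minus strand. Psmb9 (chr17:34181987-34187764, minus strand), Tap1 (chr17:34187553-34197225, plus strand), Psmb8 (chr17:34197721-34201454, plus strand) and Tap2 (chr17:34203527-34216321, plus strand) follow each other within 34335 bases. The 5′ ends of Psmb9 and Tap1 overlap head to head on opposite strands, and Tap1 and Psmb8 are 495 bases apart. B2m is at chr2:122147686-122153083 (plus strand), Nlrc5 at chr8:94434356-94527272 (plus strand) and Psmb10 at chr8:105935735-105938444 (minus strand). All 10 are protein-coding genes, and the annotated genes that overlap them lie on the other strand, except the microRNA gene Mir7072 within Nlrc5.

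Reads from close paralogs can be split or lost, so the 3′ ends were compared with all other annotated genes. Of 451 stretches of 50 bases in the last 500 bases of the longest transcript, 2 (0.443%) of H2-K1 were shared with another gene, in this case H2-D1. The shared part was 9.53% for H2-D1 and 23.9% for H2-T23, whose stretches occurred in genes such as Adsl and Rab33b, and 0 for the other 7 genes. Levels of the heavy chain genes therefore carry an uncertainty that the counting intervals below do not include.

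Promoter windows of 300 bases, from 250 bases before to 50 after the start, were held in RefSeq (GRCm38.p6) for 8 of the 10 genes, with 2 windows for H2-K1. Nlrc5 and Tap2 were not matched. Each window was searched on both strands for ATTGG (the NF-Y box, CCAAT on the other strand), TGACG (the core of a CREB/ATF site) and GAAANNGAA (the core of an interferon response element). ATTGG was found in windows of 6 genes, TGACG in those of 5 and GAAANNGAA in those of 2, against 37.4%, 20.8% and 8.56% of 32851 promoters of the same length. The windows of Tap1 and Psmb9 overlap on opposite strands, so that their ATTGG and TGACG matches are the same sites, counted for both genes. B2m held all 3 motifs, as did 0.591% of all promoters, and Psmb8 and Psmb10 held none of them. The windows of H2-D1, Psmb8 and Psmb9 lie wholly within the genes as annotated in GENCODE. Sequence upstream of those annotated 5′ ends was therefore not searched for these genes. The windows of H2-K1, H2-D1 and B2m are shown because these genes were highest together and shared low levels in mural cells. Those of Psmb9 and Psmb10 are shown because these were higher in cortical TECs. Matches are in capitals, and a match describes letters only.
H2-K1, chr17:34000284-34000583, minus strand: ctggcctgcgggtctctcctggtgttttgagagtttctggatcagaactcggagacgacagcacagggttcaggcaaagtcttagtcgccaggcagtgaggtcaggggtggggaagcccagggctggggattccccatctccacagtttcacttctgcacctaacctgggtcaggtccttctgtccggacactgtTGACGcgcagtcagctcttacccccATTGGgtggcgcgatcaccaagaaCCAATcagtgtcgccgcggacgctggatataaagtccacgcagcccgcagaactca
H2-D1, chr17:35262844-35263143, plus strand: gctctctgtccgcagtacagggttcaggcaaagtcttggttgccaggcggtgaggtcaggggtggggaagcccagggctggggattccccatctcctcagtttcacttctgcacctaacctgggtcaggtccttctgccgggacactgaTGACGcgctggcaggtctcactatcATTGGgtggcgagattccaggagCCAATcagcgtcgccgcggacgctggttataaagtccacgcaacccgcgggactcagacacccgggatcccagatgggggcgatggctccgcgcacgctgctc
B2m, chr2:122147437-122147736, plus strand: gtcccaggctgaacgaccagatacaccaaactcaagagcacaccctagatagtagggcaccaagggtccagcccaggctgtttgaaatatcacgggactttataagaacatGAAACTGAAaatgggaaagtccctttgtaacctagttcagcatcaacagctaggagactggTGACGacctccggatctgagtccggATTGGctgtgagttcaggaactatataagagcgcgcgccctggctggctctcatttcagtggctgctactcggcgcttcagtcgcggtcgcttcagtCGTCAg
Psmb9, chr17:34187281-34187580, minus strand: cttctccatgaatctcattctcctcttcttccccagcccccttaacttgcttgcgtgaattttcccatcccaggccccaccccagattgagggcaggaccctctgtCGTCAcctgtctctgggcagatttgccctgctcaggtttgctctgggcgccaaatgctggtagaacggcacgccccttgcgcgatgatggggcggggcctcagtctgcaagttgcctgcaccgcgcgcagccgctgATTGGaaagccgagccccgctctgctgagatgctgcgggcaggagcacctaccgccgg
Psmb10, chr8:105938343-105938642, minus strand: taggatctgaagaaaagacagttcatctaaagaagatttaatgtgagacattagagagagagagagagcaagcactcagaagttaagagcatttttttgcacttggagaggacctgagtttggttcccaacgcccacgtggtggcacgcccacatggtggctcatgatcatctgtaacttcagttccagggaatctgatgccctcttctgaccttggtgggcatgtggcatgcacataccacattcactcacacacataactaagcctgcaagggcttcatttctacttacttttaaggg
In H2-K1, H2-D1 and B2m, TGACG stood upstream of ATTGG on the strand shown, and in both heavy chain genes a second NF-Y box followed on the opposite strand.

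A unique molecular identifier (UMI) stands for 1 captured RNA molecule, and levels are given in CPM, a gene's UMIs relative to all UMIs, each summed over all barcodes of a class. Values listed by library are in the order Foxn1Lin female, male, then wild type male. Called barcodes numbered 8616, 3583 and 5478 and held 53366016, 33386621 and 61258534 UMIs. Between 3 and 14 barcodes were shared by any pair of libraries. Barcodes with at least 2 UMIs of Epcam, Pecam1, Pdgfra or Upk3b were called TECs, endothelial cells (ECs), fibroblasts (FBs) or mesothelial cells (MECs), and those with at least 5 UMIs of Rgs5 and Acta2 together were called mural cells (vascular smooth muscle cells and pericytes). There were 467, 430 and 878 TECs, 1883, 823 and 862 ECs, 1852, 864 and 1709 FBs, 427, 449 and 353 mural cells and 340, 0 and 36 MECs. Barcodes in several classes (594, 174 and 445) and in no class (3053, 843 and 1195) were left out. All markers of each class had UMIs in it in every library, and the hematopoietic markers, 12 genes, summed to between 4.40 and 1444 CPM over the classes, highest in TECs of Foxn1Lin female and lowest in MECs of wild type male, where 11 of the 12 were at 0.

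Differences between classes were tested with edgeR's quasi-likelihood test on the summed UMIs of each class and library, with library as a block, and p-values were adjusted by the Benjamini-Hochberg method over all genes. A gene was called at an adjusted p under 0.05. Fold changes are log2 values with standard errors (SE), n = 3 unlike libraries (2 for MECs), so that the test asks only whether a class difference recurs over these libraries. Levels in CPM, and ratios of them within a library, are relative to total UMIs and carry no normalization factors unless stated, while the fits do. Levels within a library carry exact Poisson intervals at 95%, which cover counting error only, as do all intervals here. Fewer RNA molecules per cell and a smaller share of expressing cells cannot be told apart in such sums.

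H2-K1, H2-D1 and B2m had the most UMIs of the 10 genes in all classes, and these genes and H2-T23 were lowest in mural cells. H2-K1 had 1881, 2399 and 2403 CPM in TECs, 1383, 2129 and 2311 in ECs, 1214, 2810 and 3016 in FBs and 439, 842 and 946 in mural cells. In MECs, H2-K1 had 1756 CPM in Foxn1Lin female and 3726 in wild type male. Mural cells were thus below the other classes in every library, while the order of TECs, ECs and FBs changed between libraries, with TECs highest in Foxn1Lin female and FBs highest among these classes in the male libraries. B2m was likewise highest in TECs in Foxn1Lin female and in FBs in the male libraries among these classes, at 1926, 2590 and 2849 CPM in TECs, 1473, 2511 and 2955 in ECs, 1478, 3440 and 4123 in FBs and 575, 1078 and 1523 in mural cells. H2-D1 had 941, 1585 and 1220 CPM in TECs, 1151, 2273 and 1597 in ECs, 872, 2730 and 1900 in FBs and 355, 876 and 715 in mural cells. H2-T23, which encodes Qa-1, a ligand of NKG2A receptors, had 193, 353 and 349 CPM in TECs, 140, 284 and 286 in ECs, 118, 356 and 333 in FBs and 36.8, 96.2 and 132 in mural cells.

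**Figure D1:**
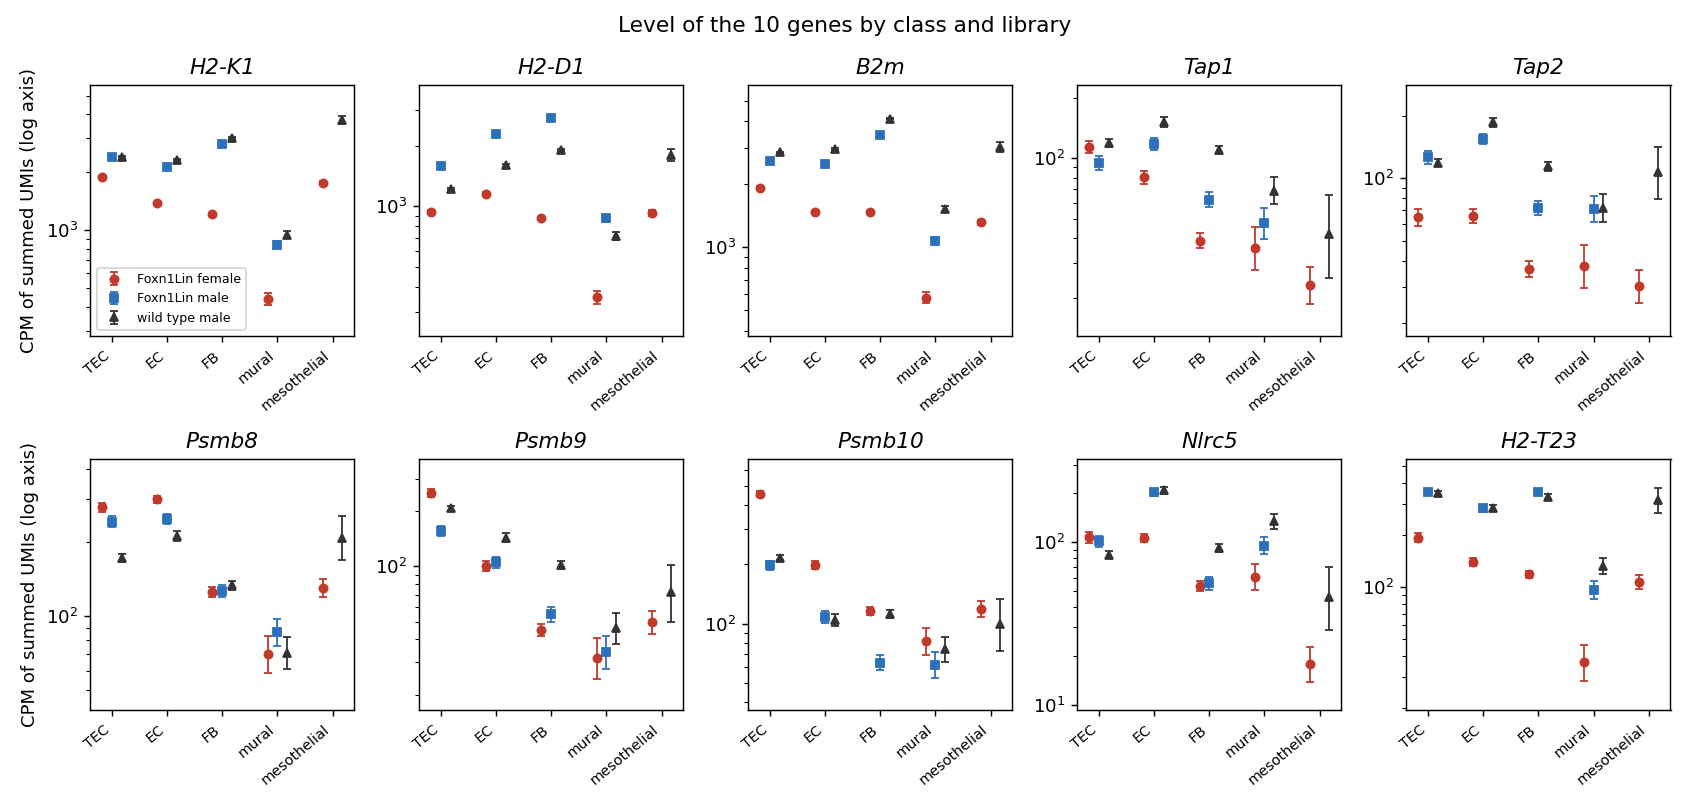
Level of each of the 10 genes, in CPM of summed UMIs on a log axis, by class on the horizontal axis; each point is 1 library and bars are exact 95% Poisson intervals. Mural cells are lowest for H2-K1, H2-D1, B2m and H2-T23 in every library, and Foxn1Lin female is below both male libraries for these genes in TECs, ECs, FBs and mural cells (Foxn1Lin male had 0 MECs).

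The transporter genes were highest in ECs in the male libraries. Tap1 had 80.3, 118 and 152 CPM in ECs against 38.9, 62.1 and 110 in FBs and 114, 94.7 and 119 in TECs, so that ECs were above FBs in every library but below TECs in Foxn1Lin female. Tap2 had 65.9, 155 and 186 CPM in ECs, 64.8, 126 and 119 in TECs and 36.5, 72.1 and 114 in FBs. Nlrc5 followed ECs more closely, with 106, 203 and 209 CPM in ECs against 53.9, 56.0 and 92.3 in FBs. Its level in TECs was 107, 102 and 83.9 CPM, close to the EC level in the female library and lower than it in both male libraries. MECs had the lowest Nlrc5 level, at 17.8 CPM in Foxn1Lin female and 46.2 in wild type male.

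Among the immunoproteasome subunits, Psmb8 was highest in ECs and Psmb9 and Psmb10 in TECs. Psmb8 had 299, 250 and 213 CPM in ECs, 278, 243 and 173 in TECs, 126, 127 and 134 in FBs and 70.0, 86.0 and 71.0 in mural cells. Psmb9 had 251, 156 and 208 CPM in TECs, 100.3, 105 and 144 in ECs, 45.2, 54.7 and 102 in FBs and 31.6, 34.3 and 46.1 in mural cells. Psmb10 had 455, 198 and 216 CPM in TECs, 198, 108 and 105 in ECs, 116, 63.5 and 111 in FBs and 81.4, 62.0 and 74.3 in mural cells. The groups of library values for TECs and FBs did not overlap for Psmb8, Psmb9 or Psmb10. How many of all genes were without such overlap was not counted, so the separation is not shown to be particular to these genes. The TEC level of Psmb10 was not shared by all TECs: cortical TECs had 934, 369 and 551 CPM and Aire-positive TECs 359, 434 and 332, while the remaining TECs described further on had 137, 82.1 and 88.2 CPM, below ECs in every library and below FBs in wild type male.

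Against FBs, TECs had higher Psmb9 (1.35 ± 0.22, adjusted p = 0.000445), Psmb10 (1.19 ± 0.21, 0.000703) and Psmb8 (0.50 ± 0.19, 0.0478), and lower H2-D1 (−0.77 ± 0.18, 0.00357) and B2m (−0.51 ± 0.18, 0.0340), by the edgeR test. These were 3 of 10 genes higher and 2 of 10 lower, where 30.1% of 17598 genes were higher and 24.9% lower. Of the other 5, H2-K1 was at −0.30, Tap1 at 0.44, Tap2 at 0.23, Nlrc5 at 0.28 and H2-T23 at −0.07. On the scale of the fit, with its TMM factors, the log2 ratio of TECs over FBs was −0.24, −1.11 and −0.96 for H2-D1, lower in every library, and 0.03, −0.73 and −0.85 for B2m, lower in the male libraries only. In CPM, which carry no such factors, the ratios were 0.11, −0.78 and −0.64 for H2-D1 and 0.38, −0.41 and −0.53 for B2m. Without Foxn1Lin male the adjusted p was 0.0820 for H2-D1, 0.257 for B2m and 0.269 for Psmb8, and without wild type male 0.0530, 0.179 and 0.0555. Psmb9 and Psmb10 passed with each library left out. The hematopoietic markers summed to 1444, 503 and 465 CPM in TECs and to 846, 163 and 40.5 CPM in FBs, higher in TECs in every library. With barcodes that held a Ptprc UMI left out, Psmb8 did not pass (0.49, adjusted p = 0.0555) and the other 4 calls held, and Psmb8 also did not pass with low-quality barcodes left out (0.0884) or after thinning (0.0742). After thinning, 3 of the 10 genes passed in place of 5, so that Psmb8 was not the only call lost there. Scaling bore on this comparison too: without normalization factors the median over all genes rose by 0.33, with 7160 genes higher and 2909 lower against 5299 and 4382, B2m then did not pass (−0.18, 0.395) and Tap1 and Tap2 did (0.77 and 0.565, adjusted p 0.0105 and 0.0217).

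ECs had higher levels than FBs of both transporter genes, of 2 immunoproteasome subunits and of Nlrc5. The fold changes were 0.83 ± 0.22 for Tap1 (adjusted p = 0.00998), 0.92 ± 0.17 for Tap2 (0.00118), 1.01 ± 0.20 for Psmb8 (0.00172), 0.88 ± 0.22 for Psmb9 (0.00820) and 1.39 ± 0.27 for Nlrc5 (0.00179), by edgeR. Thus 5 of 10 were higher and 0 lower, against 19.8% and 19.9% of all genes, and of the 5 that were not called, Psmb10 was at 0.51 (adjusted p = 0.0735) and the light and heavy chain genes were between −0.28 and −0.01. Without Foxn1Lin male, Tap1, Psmb9 and Nlrc5 did not pass (adjusted p 0.130, 0.106 and 0.0614). Psmb8 passed under every setting tried. In Foxn1Lin female, the erythroid markers Hba-a1 and Hbb-bs summed to 2248 CPM in ECs and to 446 CPM in FBs. The TEC markers there summed to 326 CPM in ECs and 160 CPM in FBs. The hematopoietic markers were lower in ECs, at 666 against 846 CPM. The part of such RNA in these differences was not tested.

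Between ECs and TECs, calls fell in both directions. H2-D1 (0.76 ± 0.18, adjusted p = 0.00354), Tap2 (0.69 ± 0.17, 0.00485), Psmb8 (0.51 ± 0.19, 0.0423) and Nlrc5 (1.10 ± 0.27, 0.00492) were higher in ECs and Psmb10 was lower (−0.67 ± 0.21, 0.0173), by edgeR. That was 4 of 10 higher and 1 lower, where 24.9% of all genes were higher and 31.4% lower. H2-K1 (0.13), B2m (0.23), Tap1 (0.40), Psmb9 (−0.47) and H2-T23 (0.01) were not called. None of the 5 calls held without Foxn1Lin male (adjusted p from 0.0543 to 0.179), and without wild type male Tap2 alone passed (0.0450). TMM scaling moves this comparison most, since without normalization factors the median over all genes fell by 0.37, with 2884 genes higher and 7543 lower against 4385 and 5530. Tap2, H2-D1 and Psmb8 then did not pass, Psmb9 did (−0.85, 0.00634), and H2-K1, B2m and H2-T23 changed sign.

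Mural cells had lower heavy and light chain levels than FBs. H2-K1 (−1.65 ± 0.19, adjusted p = 8.82e-05), H2-T23 (−1.62 ± 0.19, 0.000134), B2m (−1.51 ± 0.19, 0.000164) and H2-D1 (−1.47 ± 0.18, 0.000155) were lower, as were Psmb9 (−0.82 ± 0.23, 0.0224) and Psmb8 (−0.78 ± 0.20, 0.0133), by edgeR. Thus 0 of 10 were higher and 6 lower, where 14.3% and 14.1% of all genes were. The median of the 10 was −0.80, against −0.01 over all 17598 genes. Tap1 (−0.43), Tap2 (−0.24), Psmb10 (−0.40) and Nlrc5 (0.49) were not called. H2-K1, H2-D1, B2m and H2-T23 passed with each library left out, while Psmb8 and Psmb9 did not without Foxn1Lin male (0.0715 and 0.0938) or without wild type male (0.0611 and 0.168). The hematopoietic markers summed to 132, 42.6 and 64.7 CPM in mural cells, below the 846 and 163 CPM of FBs in the Foxn1Lin libraries and above the 40.5 CPM in wild type male. With barcodes that held a Ptprc UMI left out, the same 6 genes passed. Within mural cells, those with at least 10 Acta2 UMIs, a gene of smooth muscle contraction, had 268, 737 and 687 CPM of H2-K1, against 634, 1097 and 1442 in the other mural cells, so that the order was the same in every library. Markers of other classes moved with it: the TEC markers summed to 143, 74.6 and 93.5 CPM in the Acta2 cells and to 685, 195 and 694 CPM in the other mural cells, and the FB markers to 459, 876 and 419 against 895, 1407 and 1352 CPM. Their part in the H2-K1 levels was not tested.

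MECs, the lining of the thymic capsule, had lower Tap1 (−1.18 ± 0.29, adjusted p = 0.0136) and Nlrc5 (−1.33 ± 0.36, 0.0213) than FBs, by edgeR over the 2 libraries that held them. That was 0 of 10 higher and 2 lower, against 9.72% and 11.8% of all genes. Without wild type male, whose MECs were 36 barcodes, neither passed (0.213 and 0.105). Without Foxn1Lin female Nlrc5 did not pass (0.221), and without Foxn1Lin male, which had no MECs, Tap1 did not (0.0542). H2-K1 was at 0.22, H2-D1 at −0.22, B2m at −0.49, Tap2 at −0.23, Psmb8 at 0.28, Psmb9 at −0.30, Psmb10 at −0.12 and H2-T23 at −0.32. In Foxn1Lin female, the TEC markers summed to 1168.5 CPM in MECs and to 160 CPM in FBs. The part of RNA or cells of other classes in the MEC levels was not tested.

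**Figure D2:**
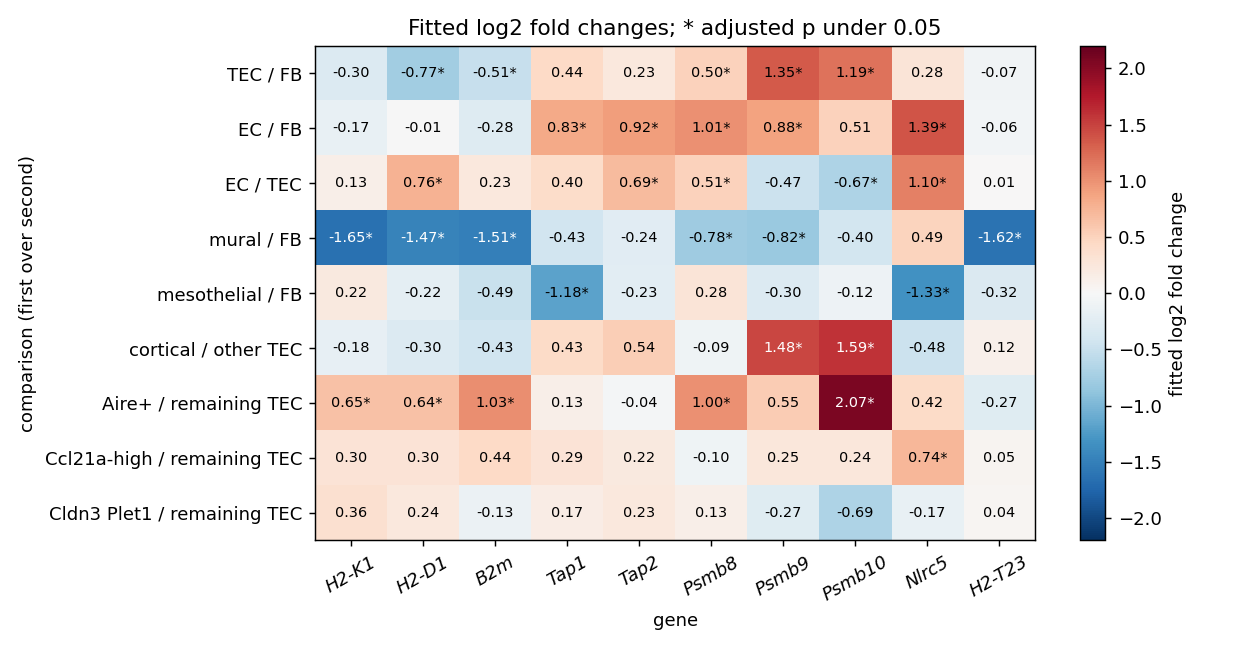
Fitted log2 fold changes of the 10 genes (columns) in 9 comparisons (rows, first over second), with red for higher and blue for lower; an asterisk marks an adjusted p under 0.05 in edgeR's test. The row of mural cells against FBs holds 6 decreases and the row of cortical against other TECs 2 increases, in Psmb9 and Psmb10.

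Cortical TECs, called from at least 2 UMIs of Psmb11, differed from other TECs in Psmb9 and Psmb10. There were 78, 13 and 82 cortical TECs and 389, 417 and 796 other TECs. Their other markers, Prss16, Ly75 and Enpep, which the rule did not use, had UMIs in every library and summed to 4597, 1361 and 4557 CPM in cortical TECs and to 154, 136 and 142 CPM in other TECs. Psmb9 had 544, 221 and 495 CPM in cortical TECs and 121, 152 and 155 in other TECs. Psmb10 had 934, 369 and 551 CPM in cortical TECs and 241, 186 and 154 in other TECs. All 3 cortical values lay above all 3 others for both genes, with the smallest difference in Foxn1Lin male, which rested on 13 barcodes. The share of all genes with such a separation was not counted.

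The fitted increases were 1.48 ± 0.31 for Psmb9 (adjusted p = 0.0110) and 1.59 ± 0.23 for Psmb10 (0.00255), by edgeR, and they passed with each library left out. These were 2 of 10 higher and 0 lower, where 7.22% of 13576 genes were higher and 16.7% lower. Psmb8, the third immunoproteasome subunit, had 298, 175 and 182 CPM in cortical TECs and 269, 248 and 171 in other TECs and was not called (−0.09 ± 0.20, adjusted p = 0.783). Tap2 was higher in all 3 libraries (log2 ratios 0.65, 0.48 and 0.58) and lay just outside the threshold (0.54 ± 0.17, adjusted p = 0.0523), and Tap1 was at 0.43 ± 0.21 (0.187). Without Foxn1Lin male, Tap1 and Tap2 passed at 0.65 and 0.63 (0.0372 and 0.0428). B2m (−0.43 ± 0.16, 0.0921), Nlrc5 (−0.48 ± 0.18, 0.0960) and H2-D1 (−0.30 ± 0.16, 0.222) were lower in cortical TECs of every library without passing, and H2-K1 (−0.18) and H2-T23 (0.12) were not called.

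**Figure D3:**
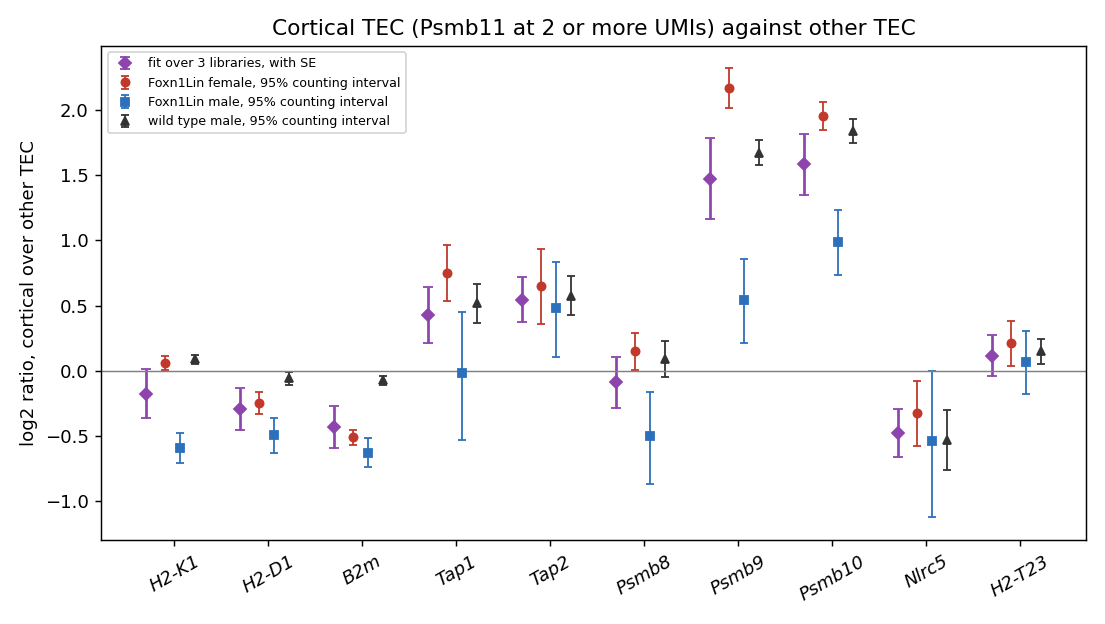
Log2 ratio of each gene's level in cortical over other TECs; diamonds are the fit over 3 libraries with its SE, and the other symbols are ratios of CPM in the libraries with 95% counting intervals. Psmb9 and Psmb10 lie above 0 in every library, and Psmb8 lies on both sides of it.

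Depth differed between the compared cells, since the median was 21756, 23732 and 29639 UMIs in cortical TECs and 9507, 12278 and 14678 in other TECs, so shares of positive barcodes were taken after each barcode was thinned to 2000 UMIs. Psmb9 was then found in 65.4% (95% exact binomial interval 53.8 to 75.8), 38.5% (13.9 to 68.4) and 59.3% (47.8 to 70.1) of cortical TECs and in 20.1%, 23.2% and 25.9% of other TECs. Psmb10 was found in 76.9%, 38.5% and 53.1% of cortical and in 30.0%, 20.9% and 21.6% of other TECs. For both genes the intervals of cortical and other TECs did not meet in Foxn1Lin female and wild type male, and they met in Foxn1Lin male. Psmb8 shares were alike, at 33.3%, 30.8% and 24.7% against 34.0%, 28.0% and 26.2%. None of the classes is known to lack these genes, and the lowest shares were those of mural cells, with Psmb9 in 6.36%, 5.50% and 6.41% and Psmb10 in 13.2%, 9.86% and 12.0% of thinned barcodes, at medians of 4050, 5473 and 5948 UMIs. Before thinning, Psmb9 was found in 100%, 100% and 97.6% of cortical and in 58.6%, 61.6% and 74.7% of other TECs, and Psmb10 in 96.2%, 100% and 96.3% against 66.1%, 57.8% and 62.3%.

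Levels of Psmb9 and Psmb10 differed also with the number of Psmb11 UMIs. In TECs with 0, 1, 2 to 4 and at least 5 Psmb11 UMIs, Psmb10 had 238, 270, 551 and 979 CPM in Foxn1Lin female and 155, 143, 250.3 and 631 CPM in wild type male. Psmb9 had 118, 152, 376 and 563 CPM in Foxn1Lin female and 153, 168, 222 and 567 CPM in wild type male. In Foxn1Lin male the upper bins held 8 and 5 barcodes, and Psmb10 was at 190, 108, 168 and 965 CPM and Psmb9 at 151, 169, 187 and 322 CPM. Psmb8 was also highest in the top bin, within a narrower range in Foxn1Lin female (252 to 304 CPM) and wild type male (147 to 191 CPM). In Foxn1Lin male, Psmb8 was at 254, 134, 128 and 312 CPM, so that it did not rise from bin to bin there.

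**Figure D4:**
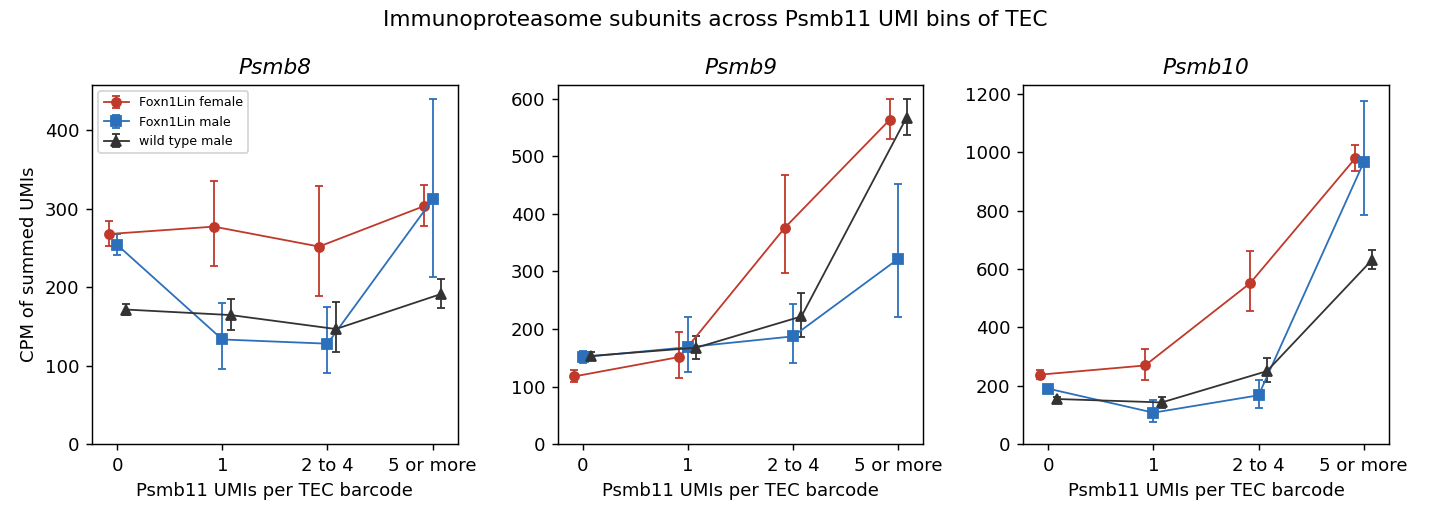
Levels of the 3 immunoproteasome subunits, in CPM of summed UMIs, in TECs binned by Psmb11 UMIs per barcode; lines join the bins of a library and bars are exact 95% Poisson intervals. Psmb9 and Psmb10 are highest in the bin of at least 5 UMIs in every library, and Psmb8 varies less between bins in Foxn1Lin female (252 to 304 CPM) and wild type male (147 to 191 CPM).

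The exchange of catalytic subunits can be read within the same cells, as the UMIs of an immunoproteasome subunit out of those of the pair it forms with its constitutive counterpart. For Psmb10 and Psmb7, which carry the trypsin-like site, the share of Psmb10 was 89.7%, 85.7% and 85.1% in cortical TECs and 70.4%, 63.1% and 64.4% in other TECs. For Psmb9 and Psmb6 it was 63.5%, 48.9% and 74.6% in cortical and 39.8%, 47.9% and 55.0% in other TECs, with intervals that met only in Foxn1Lin male. For Psmb8 and Psmb5, whose place Psmb11 takes in the thymoproteasome, the order was turned, at 47.9%, 52.2% and 53.3% in cortical and 65.9%, 65.3% and 63.2% in other TECs. ECs had the highest Psmb8 share of all classes, at 71.3%, 77.5% and 79.8%. Over all 3 pairs, cortical TECs had 70.5%, 62.8% and 74.3% immunoproteasome UMIs, other TECs 59.9%, 59.0% and 60.6% with intervals that met in Foxn1Lin male, ECs 63.0%, 62.1% and 66.9%, FBs 53.1%, 50.5% and 64.5% and mural cells 34.3%, 39.4% and 49.0%. A share compares classes, not the amounts of both subunits, since genes of unlike sequence are captured with unlike efficiency.

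**Figure D5:**
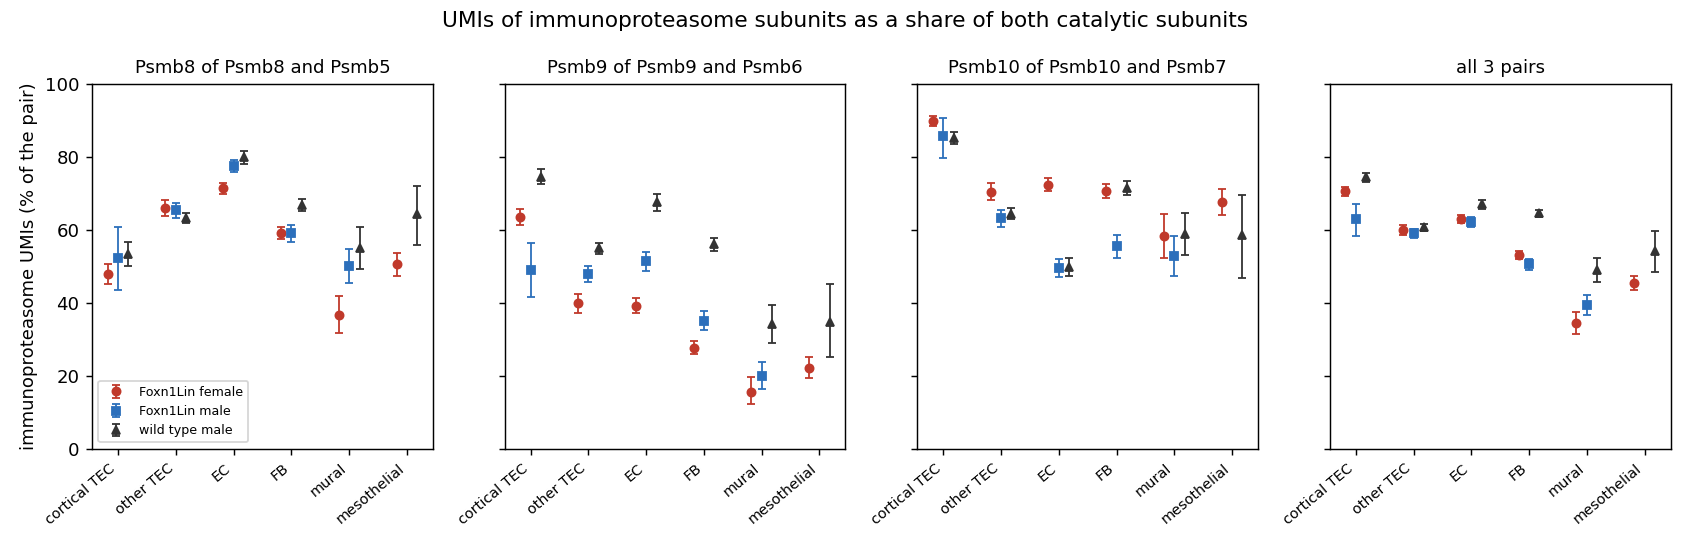
UMIs of Psmb8, Psmb9 and Psmb10 as a percent of the UMIs of each subunit and its constitutive counterpart, and of all 3 pairs together, by class; points are libraries and bars are exact 95% binomial intervals. In cortical TECs the Psmb10 share is highest and the Psmb8 share is below that of other TECs in every library.

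Among the TECs, Aire-positive cells stood apart. TECs with at least 1 Aire UMI, the regulator of tissue-restricted antigens in the medulla, numbered 138, 79 and 192. Remaining TECs, which met none of the rules for cortical, Aire-positive, Ccl21a-high or joint Cldn3 and Plet1 cells, numbered 173, 229 and 394. They could still hold Psmb11 or Ccl21a UMIs below the thresholds for cortical and Ccl21a-high TECs. Psmb10 had 359, 434 and 332 CPM in Aire-positive cells and 137, 82.1 and 88.2 in remaining TECs. B2m had 2661, 4231 and 3996 CPM against 1595, 1915 and 2259, and Psmb8 had 301, 444 and 238 against 240, 166 and 134. The values did not overlap between these groups for Psmb10 or B2m, and how often this held among all genes was not counted.

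Psmb10 (2.07 ± 0.37, adjusted p = 0.00124), B2m (1.03 ± 0.22, 0.00358), Psmb8 (1.004 ± 0.29, 0.0191), H2-K1 (0.65 ± 0.22, 0.0387) and H2-D1 (0.64 ± 0.19, 0.0186) were higher in Aire-positive cells, by edgeR, which is 5 of 10 higher and 0 lower where 18.8% and 13.9% of 12934 genes were. The median over all these genes was 0.11. Psmb9 (0.55), Nlrc5 (0.42), Tap1 (0.13), Tap2 (−0.04) and H2-T23 (−0.27) were not called. Without Foxn1Lin male, H2-K1, H2-D1 and Psmb8 did not pass (0.322, 0.254 and 0.0820), and their fold changes were 0.32, 0.37 and 0.58. Without wild type male only Psmb10 passed (0.0430), and without Foxn1Lin female H2-K1 did not (0.0633). H2-K1 also did not pass without normalization factors (0.54, 0.0710), which lowered the median over all genes by 0.12, and Psmb10 passed under every setting tried. Aire-positive barcodes were deeper, at medians of 12941.5, 16037 and 20096.5 UMIs against 7210, 9817 and 12042. The hematopoietic markers summed to 1487, 1630 and 1242 CPM in Aire-positive and to 2187, 208 and 274 CPM in remaining TECs, so that they were higher in Aire-positive cells in both male libraries. With barcodes that held a Ptprc UMI left out, the same 5 genes passed (0.66 for H2-K1, 0.64 for H2-D1, 1.04 for B2m, 1.02 for Psmb8 and 2.06 for Psmb10).

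Ccl21a-high TECs, with at least 10 UMIs of this chemokine of medullary cells, numbered 34, 72 and 88 and differed from remaining TECs in Nlrc5 alone. Nlrc5 had 159, 134 and 153 CPM against 92.1, 91.8 and 80.8 (0.74 ± 0.18, adjusted p = 0.0379 by edgeR), so that 1 of 10 was higher and 0 lower, against 1.26% and 2.41% of all genes. The call was lost without any of the libraries (adjusted p 0.172, 0.134 and 0.533 without Foxn1Lin female, Foxn1Lin male and wild type male). The other 9 were between −0.10 and 0.44.

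TECs with both Cldn3 and Plet1 UMIs numbered 28, 29 and 97. The study uses claudin-3 to mark an age-associated TEC state (aaTEC1). It also counts both genes among markers of TEC precursors that age-associated TECs express. By gene set enrichment against all other TECs, it reports loss of antigen presentation in aaTEC1. The cells here were picked by other rules and compared with remaining TECs, so that result was not retested. None of the 10 genes was called against remaining TECs by edgeR, and 0 had an unadjusted p under 0.05, where 0.410% of all genes were higher and 0.688% lower. DESeq2 also called 0. Psmb10, at 73.5, 42.4 and 67.0 CPM against 137, 82.1 and 88.2, was lower in every library without passing (−0.69 ± 0.39, adjusted p = 0.467). H2-K1 was higher in every library (0.36 ± 0.22, 0.519).

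In TECs, ECs, FBs and mural cells, Foxn1Lin female had lower heavy and light chain levels than both male libraries. As each group had 1 library, these are values without a test. In FBs, H2-K1 was 2.31-fold (95% counting interval 2.27 to 2.36) higher in Foxn1Lin male and 2.48-fold (2.44 to 2.53) higher in wild type male than in Foxn1Lin female. H2-T23 was 3.01-fold and 2.82-fold higher, B2m 2.33-fold and 2.79-fold, and H2-D1 3.13-fold and 2.18-fold. In mural cells H2-T23 was 2.61-fold (2.004 to 3.45) and 3.60-fold (2.77 to 4.72) higher. Psmb8 was at 126, 127 and 134 CPM in the same FBs, and Psmb10 was higher in Foxn1Lin female than in Foxn1Lin male (116 against 63.5 CPM).

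Counted by a fixed size, at most 0.5 times the lower male level among genes with a mean of at least 10 CPM, 4 of the 10 genes were low in FBs of Foxn1Lin female, namely H2-K1, H2-D1, B2m and H2-T23, where 3.41% of 8939 genes were. In ECs 2 of 10 were low (Tap2 and H2-T23) against 2.71% of 8564 genes, in mural cells 2 of 10 (H2-D1 and H2-T23) against 2.73% of 8969, and in TECs 0 of 10 against 1.85% of 10109. The makeup of FBs moved with this difference. FBs with at least 2 Ptn UMIs and neither Pi16 nor Smoc2 at that level were 19.1%, 62.4% and 52.2% of FBs, and they had more H2-K1 than FBs marked by Pi16 or Smoc2 in every library. The difference from Foxn1Lin female varied between subsets of FBs. Within Ptn FBs H2-K1 was 1.64-fold (1.59 to 1.70) and 1.61-fold (1.56 to 1.67) and B2m 1.66-fold and 1.93-fold above Foxn1Lin female. Within Smoc2 FBs H2-K1 was 1.78-fold and 2.45-fold above it, and within Pi16 FBs 1.23-fold (1.06 to 1.43, 22 barcodes in Foxn1Lin male) and 2.82-fold. In FBs with none of these markers H2-K1 was 1.07-fold above it in Foxn1Lin male, with an interval that included 1 (0.989 to 1.16), and 1.89-fold (1.78 to 2.00) in wild type male.

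RNA outside cells also moved with the libraries, as 26.5%, 12.9% and 9.46% of all UMIs lay outside called barcodes. There, H2-K1 was at 1510, 2935 and 3860 CPM, B2m at 1945, 3338 and 3926, Psmb10 at 248, 170 and 168, and Psmb9 at 114, 120 and 131. Mural levels of H2-K1 and B2m lay below these values in every library, and cortical levels of Psmb9 and Psmb10 above them. The part of this RNA in the levels within classes was not tested. Hematopoietic markers summed to 1212, 4.91 and 326 CPM in cortical against 1548, 537 and 491 CPM in other TECs, and with barcodes that held a Ptprc UMI left out, Psmb9 and Psmb10 still passed in cortical TECs.

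Other genes of the pathway were taken from fixed lists. In cortical against other TECs, where 7.22% of all genes were higher and 16.7% lower, 5 of 11 other subunits of the 20S core were higher and 0 lower by the edgeR test, among them Psmb4 (1.56 ± 0.28, adjusted p = 0.00594) and Psma7 (1.04 ± 0.27, 0.0269), as was the constitutive Psmb5 (0.73 ± 0.23, 0.0492). The activators Psme1 (−1.67 ± 0.21, 0.00127) and Psme2 (−0.75 ± 0.20, 0.0269), whose products form the PA28 cap, were lower. The regulators that were higher included Irf1 (0.61 ± 0.15, 0.0217) and Socs1 (0.60 ± 0.17, 0.0399), and Jak2 was lower (−0.69 ± 0.21, 0.0459). Of 10 other class I genes, 0 were higher and 3 lower (H2-Q10, H2-M2 and H2-Q7), and of 6 peptide loading genes only Calr was called (−0.57 ± 0.15, 0.0272).

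In Aire-positive against remaining TECs, Psme2 (1.87 ± 0.18, adjusted p = 5.02e-05 by edgeR), Psme1 (1.53 ± 0.22, 0.00034) and Psme3 (1.18 ± 0.25, 0.00339) were all higher, as were 3 of 3 constitutive catalytic subunits, 6 of 11 other core subunits, 4 of 6 peptide loading genes and 5 of 9 other class I genes, with 0 lower in these lists, where 18.8% of all genes were higher and 13.9% lower. In mural cells against FBs, where 14.1% of all genes were lower, all 6 peptide loading genes were lower, among them Pdia3 (−1.48 ± 0.14, 3.31e-05) and Calr (−1.41 ± 0.13, 2.08e-05), as were 7 of 10 other class I genes, while 0 of 3 constitutive catalytic subunits, 0 of 11 other core subunits and 0 of 4 activators were called. Against FBs, 30.1% of all genes were higher and 24.9% lower in TECs, 14.3% and 14.1% in mural cells, and 9.72% and 11.8% in MECs. Of the 16 regulators, 4 were higher and 6 lower than in FBs in TECs, 2 and 6 in mural cells, and 0 and 6 in MECs. The regulators that were higher thus made up no larger share than among all genes in these classes. Ifngr1, an interferon gamma receptor chain, was among those lower in TECs (−2.78 ± 0.23, 3.43e-06), mural cells (−2.14 ± 0.22, 5.63e-05) and MECs (−1.84 ± 0.27, 0.000682). Ciita, the MHC class II transactivator, was among those higher in TECs (5.25 ± 0.32, 6.74e-07) and in mural cells (1.26 ± 0.39, 0.0347), as was Irf1 in mural cells (1.18 ± 0.22, 0.00244). In ECs against FBs, 7 of 16 regulators were higher and 3 lower, against 19.8% and 19.9% of all genes, so that the share that was lower was near that of all genes. Those with the largest fold changes were Ciita (1.63 ± 0.32, 0.00188), Rfxap (1.61 ± 0.21, 9.83e-05), Jak2 (1.18 ± 0.18, 0.000301) and Irf1 (1.09 ± 0.22, 0.00215). TECs against FBs had 3 of 3 constitutive catalytic subunits and 7 of 11 other core subunits higher with 0 lower, 1 of 6 peptide loading genes higher (Tapbpl, 1.05 ± 0.16, 0.000203) and 4 lower, and 2 of 10 other class I genes higher and 3 lower, where 30.1% of all genes were higher and 24.9% lower.

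Over the 14 class and library sums, the mean of the log2 levels of the 10 genes was most like that of Mbtd1 (Pearson r = 0.94), Xrcc4 (0.93) and Ascc3 (0.93), followed by Gm19684, H2-Q7 (0.92), Oas1a (0.92), Arrdc4, Dll1, Bsdc1 and Vsig10, out of 9931 genes. H2-Q7 is a nonclassical class I gene and Oas1a an interferon-induced antiviral enzyme. Among the members, each set against the mean of the other 9, r was highest for H2-T23 (0.88), Psmb9 (0.84) and B2m (0.83) and lowest for Nlrc5 (0.43) and Psmb10 (0.39). These values are descriptions, since the sums share libraries, depth and classes.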

How the data were processed

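Single-cell RNA-seq libraries of sorted thymic stroma were made with 3′ chemistry from pooled thymi, 1 library per group. The deposited counts are UMI counts per gene and barcode, which the authors obtained with Cell Ranger 7.0.1 on mm10 (GRCm38), intron reads included, and no normalization was applied. The deposited sequencing saturation is given in percent per library (52.1%, 81% and 72.8%), as the authors' pipeline computed it. All barcodes of the filtered matrices were used. Barcodes that met several class rules were dropped, and no other doublet caller was run. Ccl21a stands for 2 features, which were summed.

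UMIs were summed per library and class (at least 5 barcodes), filtered with filterByExpr, scaled by TMM and tested with edgeR 4.0.16 (glmQLFit, glmQLFTest; R 4.3.3), with library as a block. Adjustment ran over all genes tested, at a threshold of 0.05. Libraries were not compared by a test, since each group had 1. The 3 libraries differ in genotype, sex and sorting and are the only replication, so that p-values speak for class differences in these libraries alone. The spread of each gene was estimated in part from other genes and over all groups of a fit. The fit of cortical against other TECs had 2 residual degrees of freedom, so its p-values lean most on this sharing. Shares of positive barcodes were taken after thinning to 2000 UMIs without replacement, with shallower barcodes left out. Counting intervals are exact, at 95%. Called barcodes had medians of 4675, 7431 and 7947 UMIs. Scripts used numpy 2.4.6, scipy 1.17.1, pandas 2.3.3 and matplotlib 3.10.9, and the fits were tested on simulated data. Promoter windows came from RefSeq and positions from GENCODE.

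All 10 genes are given in every comparison. Of the pathway lists, up to 4 genes per list and comparison could be named, those past the threshold with the largest fold change, and not all of these genes are reported here. The 10 genes, the lists and the tests were chosen with earlier results of these data known. Alternatives were no normalization factors, DESeq2 1.42.0, no filter, no block, other barcode filters, thinning, other class thresholds and leaving out each library.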

Additional observations from a re-analysis of the deposited data

Results flagged for a closer look

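For 12 differences between classes, the libraries moved in opposite directions, each with a counting interval that did not include 0. The differences between libraries were not tested, as each group had 1 library. Values are log2 ratios of CPM within a library, relative to total UMIs. With the TMM factors of the fits, a setting chosen after the data were seen, 10 of the 12 remained, 2 did not, and 8 others moved in opposite directions. TECs over FBs gave for H2-K1 0.63 in the Foxn1Lin female library, and −0.23 and −0.33 in those of Foxn1Lin male and wild type male. In the same order, H2-D1 gave 0.11, −0.78 and −0.64, B2m 0.38, −0.41 and −0.53, which are the 2 that did not remain (with TMM factors −0.24, −1.11 and −0.96 for H2-D1 and 0.03, −0.73 and −0.85 for B2m), and Nlrc5 0.99, 0.86 and −0.14. ECs over FBs gave 0.19, −0.40 and −0.38 for H2-K1, 0.40, −0.26 and −0.25 for H2-D1, and 0.24, −0.32 and −0.22 for H2-T23.

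ECs over TECs gave −0.39, −0.04 and 0.05 for B2m and −0.50, 0.32 and 0.34 for Tap1. Cortical over other TECs gave 0.06, −0.60 and 0.09 for H2-K1, and for Psmb8 0.15 in Foxn1Lin female and −0.51 in Foxn1Lin male, where cortical TECs were 13 barcodes. TECs with Cldn3 and Plet1 over remaining TECs gave 0.21, −0.78 and 0.05 for B2m.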

How the results depend on the processing

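Of 31 called fold changes, 9 passed under every alternative: Psmb9 and Psmb10 in TECs over FBs and in cortical over other TECs, Psmb8 in ECs over FBs, H2-K1, H2-D1 and B2m in mural cells over FBs, and Psmb10 in Aire-positive TECs. None of the 31 changed direction. The cause of the changes below was not tested. With 1 library left out, fewer sums enter each fit, and a class left with 1 sum is assumed to vary like the others. Shares of positive barcodes moved in 177 of 200 cases with thinning to 1000 UMIs and in 200 of 200 without thinning, so that they depend on depth. MECs in wild type male were 36 barcodes and cortical TECs in Foxn1Lin male 13.

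Libraries carry the replicate number 1 in every group. Without library as a block, the number of the 10 genes past the threshold was 2 in TECs over FBs (5 with the block), 3 in ECs over FBs (5), 1 in ECs over TECs (5), 0 in MECs over FBs (2), 2 in Aire-positive (5) and 0 in Ccl21a-high TECs (1), and Psmb10 in MECs over FBs was 0.072.

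With 1 library left out, the numbers ranged from 2 to 6 in TECs over FBs, 2 to 5 in ECs over FBs, 0 to 6 in ECs over TECs, 4 to 6 in mural cells, 0 to 1 in MECs, 2 to 4 in cortical TECs, 1 to 4 in Aire-positive TECs and 0 to 0 in Ccl21a-high TECs. Thinned to 2000 UMIs, they were 3 in TECs over FBs, 1 in MECs and 0 in Ccl21a-high TECs. Without normalization factors 3 passed in ECs over TECs, with at least 20 barcodes 4 in cortical TECs, and without a filter 3 in Aire-positive and 0 in Ccl21a-high TECs. The immunoproteasome share of TECs in Foxn1Lin female was 63.7% without barcodes with Ptprc UMIs (65.4% with them).

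Fold changes with another sign than reported were all short of the threshold in both fits (log2 values). Without normalization factors these were H2-K1 in TECs over FBs 0.033, H2-T23 in TECs over FBs 0.259, H2-K1 in ECs over TECs −0.242, B2m in ECs over TECs −0.145 and H2-T23 in ECs over TECs −0.363. With DESeq2 these were H2-T23 in TECs over FBs 0.073, H2-D1 in ECs over FBs 0.040 and H2-T23 in ECs over TECs −0.093. Without a filter these were H2-T23 in TECs over FBs 0.090, H2-D1 in ECs over FBs 0.044, H2-T23 in ECs over TECs −0.104, Tap1 in Aire-positive TECs −0.104, H2-T23 in Ccl21a-high TECs −0.118, Tap1 in Cldn3 and Plet1 TECs −0.004, Psmb8 in Cldn3 and Plet1 TECs −0.039 and H2-T23 in Cldn3 and Plet1 TECs −0.129. Without Ptprc barcodes these were H2-D1 in ECs over FBs 0.048. Thinned to 2000 UMIs these were H2-K1 in ECs over TECs −0.012, Tap2 in Ccl21a-high TECs −0.259, Psmb8 in Ccl21a-high TECs 0.060, Psmb10 in Ccl21a-high TECs −0.266, Tap2 in Cldn3 and Plet1 TECs −0.694 and H2-T23 in Cldn3 and Plet1 TECs −0.427. With at least 20 barcodes these were H2-K1 in cortical over other TECs 0.094 and Psmb8 in cortical over other TECs 0.144. With thresholds of 3 and 8 UMIs these were H2-D1 in ECs over FBs 0.041. With each library left out in turn, values ranged for H2-T23 in TECs over FBs from −0.156 to 0.047, H2-D1 in ECs over FBs from −0.147 to 0.053, H2-T23 in ECs over TECs from −0.052 to −0.006, Psmb10 in MECs over FBs from −0.184 to 0.060, H2-K1 in cortical over other TECs from −0.221 to 0.094, Psmb8 in cortical over other TECs from −0.136 to 0.144. They also ranged for Tap1 in Aire-positive TECs from −0.034 to 0.099, Psmb8 in Ccl21a-high TECs from −0.355 to 0.032, H2-T23 in Ccl21a-high TECs from −0.015 to 0.095, B2m in Cldn3 and Plet1 TECs from −0.310 to 0.067, Psmb8 in Cldn3 and Plet1 TECs from −0.049 to 0.215 and H2-T23 in Cldn3 and Plet1 TECs from −0.121 to 0.195.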
